A study of Sus scrofa domesticus with 12 samples.

Results

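The genes that encode collagen IV, the laminins and the nidogens of the basement membrane were followed across sham-operated and injured pig muscle. The 10 genes were chosen by name: COL4A1, COL4A2, COL4A5, LAMA2, LAMA4, LAMB1, LAMB2, LAMC1, NID1 and NID2. Of these, 7 had a row among the 11506 named genes of the table and were analysed, whereas COL4A5, LAMA2 and NID1 are not analysed here. Their levels were measured by RNA-seq of whole-tissue samples from the peroneus tertius, an anterior compartment muscle of the hindlimb, 12 weeks after a piece of its middle portion had been removed (volumetric muscle loss, VML). All animals were young adult female Yorkshire Cross pigs that had surgery on both hindlimbs, and each library came from 1 limb. The 12 libraries were from 11 pigs. In the Sham group (n = 2) the muscle was exposed and none was removed, the No repair group (n = 2) had the injury alone, and the HA group (n = 2) had the injury filled with a hyaluronan hydrogel that served as the biomaterial negative control. The ECM-SIS group (n = 6) had the injury filled with an acellular extracellular matrix. The labels name small intestinal submucosa for all 6, while the study describes grafts of urinary bladder matrix as well, so the graft of a given library cannot be told from its label. Pig 017 gave No repair library 1 and HA library 2, and the p-values therefore measure the spread between limbs. VML-injured refers to the mean of the 3 injured groups with equal weight.

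A basement membrane is a thin sheet of extracellular matrix that surrounds each muscle fiber, blood vessel and Schwann cell. Laminins, each a trimer of an alpha, a beta and a gamma chain, bind integrins and dystroglycan at the cell surface and polymerise into a first network. Collagen IV, a trimer that is crosslinked into a second network, gives the sheet its tensile strength, and nidogens bind the networks to each other. In muscle the sheet anchors the fiber to the interstitial matrix, forms the niche of the satellite cell and remains as a sleeve along which a lost fiber can regrow. Fibrillar collagens, which form the cables of scar, belong to the interstitial matrix and not to the basement membrane.

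Expression was given as TPM, a level per transcript length that is scaled to the same sum in each library. Levels of different genes can thus be compared within a library as far as the row of each gene is complete, which was not tested. The number of reads behind a value is unknown. Between 71.5 and 82.7% of a library's whole TPM fell on the named genes. Markers of the muscle fiber were detected in all libraries, and the 20 of them together summed to 192970 and 183832 TPM in the Sham libraries and to 13769 to 97796 TPM in the injured libraries. Since TPM sum to a constant, a fall of abundant transcripts raises the TPM of all others. The median gene of the 8782 tested was higher by 0.73 on the log2 scale in VML-injured than in Sham muscle. Differences are therefore given for the TPM as deposited and again after rescaling each library by a trimmed mean of log ratios, after which the median gene differed by -0.01. In whole tissue, fewer cells of a type and less RNA per cell cannot be told apart.

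COL4A1 and COL4A2, neighboring genes whose products combine in the most widespread collagen IV trimer, were both higher after VML. COL4A1 was at 48.7 and 128 TPM in Sham, 254 and 285 in No repair, and 362 and 200.4 in HA muscle. In ECM-SIS muscle its lowest, median and highest values were 112, 195 and 372 TPM. All injured libraries except ECM-SIS library 3 lay above both Sham libraries, which themselves differed more than the No repair libraries did. COL4A2 was at 36.4 and 99.8 TPM in Sham, 273 and 224 in No repair, and 452 and 212 in HA muscle. Its lowest, median and highest ECM-SIS values were 104, 174 and 375 TPM, and the injured and Sham libraries did not overlap. The mean COL4A1 level was 88.3 ± 56.0 TPM (SD, n = 2) in Sham and 242 ± 93.0 TPM (SD, n = 10) in injured muscle, and that of COL4A2 was 68.1 ± 44.8 and 241 ± 110.0 TPM. In limma, fitted to log2(TPM + 0.5) over all tested genes, COL4A1 rose by 1.62 on the log2 scale (SE 0.47, adjusted p = 0.0113) and COL4A2 by 2.001 (SE 0.49, adjusted p = 0.00433).

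**Figure D1:**
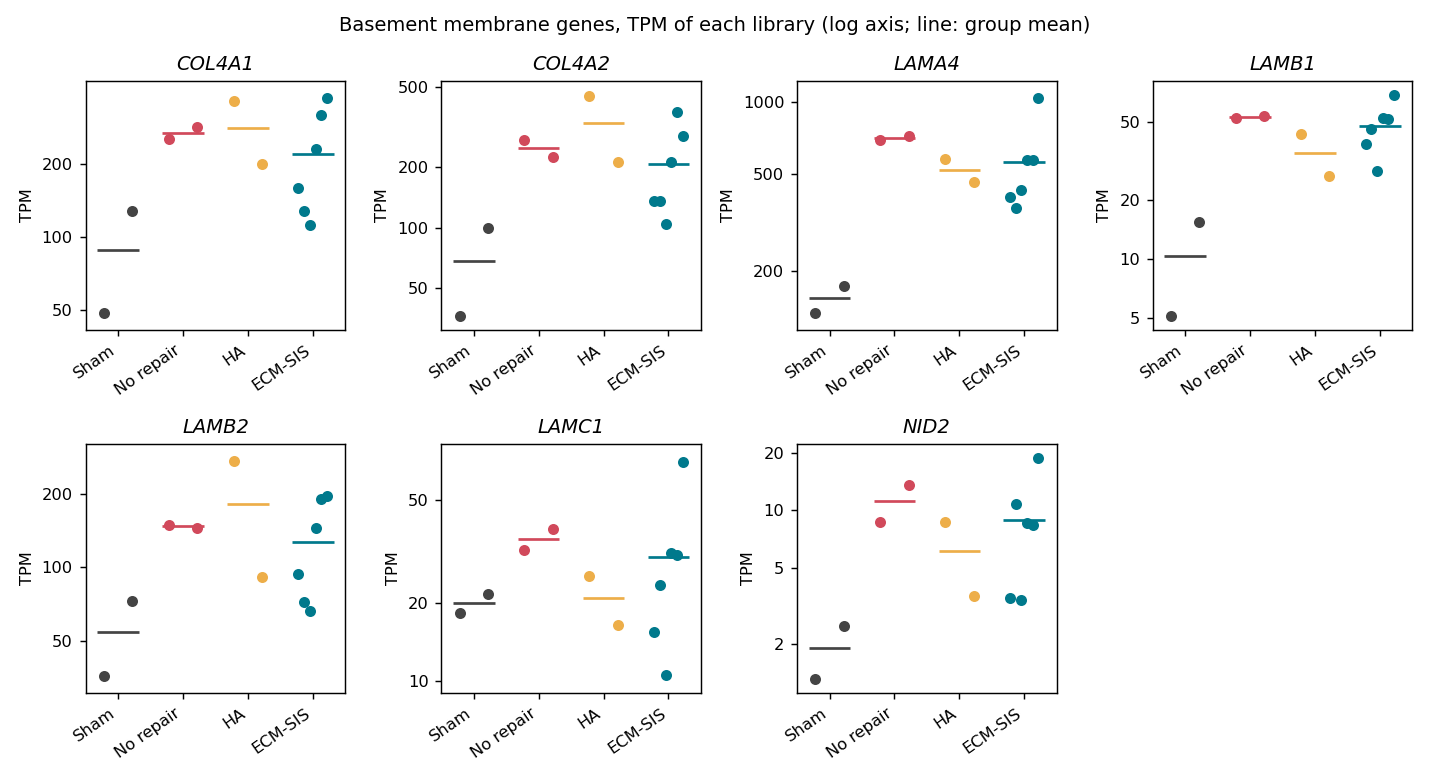
TPM of the 7 basement membrane genes in each library, on log axes that differ between panels, with a point per library and a line at the mean of each group. All injured libraries lie above both Sham libraries for COL4A2, LAMA4, LAMB1 and NID2, whereas the groups overlap for COL4A1, LAMB2 and, most of all, LAMC1.

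Among the laminin chains, LAMA4 was the most abundant member of the set in all 12 libraries. LAMA4 encodes the alpha chain known from the laminins of vessel walls, nerve and fat. It was at 133 and 173 TPM in Sham, 692 and 724 in No repair, and 580.3 and 467 in HA muscle. Its lowest, median and highest ECM-SIS values were 362, 502 and 1032 TPM. The lowest injured library was well above the higher Sham library, and ECM-SIS library 6 stood apart at the top. The mean was 153 ± 28.2 TPM (SD, n = 2) in Sham and 584 ± 198 TPM (SD, n = 10) in injured muscle, a rise of 1.93 on the log2 scale (SE 0.34, limma adjusted p = 0.000446).

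The beta chains both rose, from very different levels. LAMB1, the beta chain of most tissues and of the developing basement membrane, was at 5.10 and 15.5 TPM in Sham, 52.7 and 54.1 in No repair, and 43.5 and 26.6 in HA muscle. Its ECM-SIS values had a lowest of 28.3, a median of 49.2 and a highest of 69.0 TPM, and no injured library reached down to the Sham libraries. LAMB1 rose by 2.22 (SE 0.38, limma adjusted p = 0.000363), the largest log2 difference among the 7 genes. LAMB2, the beta chain that in muscle is concentrated at the neuromuscular junction, was at 36.1 and 73.0 TPM in Sham, 149 and 145 in No repair, and 272 and 91.3 in HA muscle. Its ECM-SIS values had a lowest of 66.3, a median of 119 and a highest of 196 TPM. Here 8 of 10 injured libraries were above both Sham libraries, and ECM-SIS libraries 2 and 3 were not. LAMB2 rose by 1.43 (SE 0.48, limma adjusted p = 0.0232).

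LAMC1, the gamma chain that nearly all laminins share, was the only member that did not pass the test. It was at 18.2 and 21.6 TPM in Sham, 31.96 and 38.6 in No repair, and 25.3 and 16.4 in HA muscle. Its ECM-SIS values ran from 10.6 through a median of 27.0 to 69.8 TPM. The Sham libraries lay inside the range of the injured ones, with 7 injured libraries above both and 3 below both. The difference between VML-injured and Sham was 0.40 on the log2 scale (95% CI -0.70 to 1.49, limma adjusted p = 0.514), an interval that holds a fall as well as a rise of more than 1. After rescaling its sign turned to -0.41 (95% CI -1.23 to 0.41, limma adjusted p = 0.373).

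NID2, the nidogen that is most often associated with vessel basement membranes, was the least abundant of the 7 in all libraries. It was at 1.31 and 2.49 TPM in Sham, 8.68 and 13.6 in No repair, and 8.68 and 3.57 in HA muscle. The ECM-SIS values had a lowest of 3.39, a median of 8.46 and a highest of 18.8 TPM. All injured libraries were above both Sham libraries, with HA library 2 and ECM-SIS libraries 1 and 3 closest to them. NID2 rose by 1.82 (SE 0.54, limma adjusted p = 0.0130).

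In VML-injured against Sham muscle, then, 6 of 7 members rose and none fell, where 49.4% of all tested genes rose. The median difference of the members was 1.82 on the log2 scale beside 0.73 over all tested genes. In 4 of 7 members all injured libraries were above both Sham libraries, as they were for 49.8% of tested genes. After rescaling, COL4A2 at 1.19, LAMA4 at 1.11, LAMB1 at 1.44 and NID2 at 1.14 still passed the test (limma adjusted p = 0.0256, 0.00283, 0.00156 and 0.0400), while COL4A1 at 0.80 and LAMB2 at 0.61 did not (limma adjusted p = 0.0782 and 0.179). Thus 4 of 7 members were called higher where 28.7% of tested genes were, and the median of the members was 1.11. The size of the differences leaned on Sham library 1, which had the lowest value of 6 of the 7 members. Without Sham library 1 the log2 difference fell to 0.93 for COL4A1, 1.28 for COL4A2, 0.93 for LAMB2, 1.46 for NID2 and 1.46 for LAMB1. It was 1.74 for LAMA4 and 0.27 for LAMC1. Without Sham library 2 it was higher, from 0.52 for LAMC1 to 2.98 for LAMB1. The share of all tested genes called without a Sham library is not given, so a fall particular to the members was not tested.

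**Figure D2:**
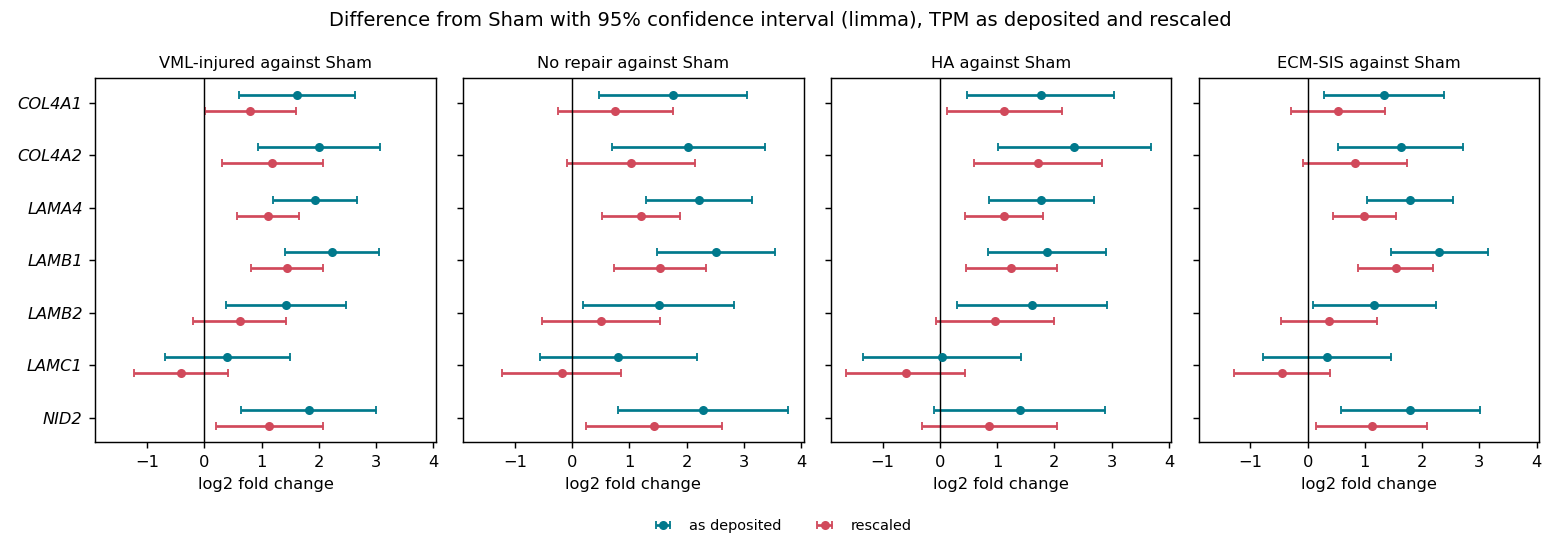
Log2 fold change of the 7 genes from Sham with its 95% confidence interval from limma, for VML-injured and for each injured group, from TPM as deposited and after rescaling of each library. LAMA4 and LAMB1 lie to the right of 0 in all 4 panels on both scales, whereas LAMC1 changes sign on rescaling in all 4.

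Each injured group was also set against the same 2 Sham libraries, to ask whether the response was present without and with a repair. In No repair muscle 5 of 7 members rose (45.1% of tested genes), namely LAMB1 by 2.51, NID2 by 2.29, LAMA4 by 2.22, COL4A2 by 2.03 and COL4A1 by 1.76 on the log2 scale (highest limma adjusted p = 0.0279), and LAMB2 was at 1.51 with an adjusted p of 0.0574. In HA muscle 4 rose (33.9% of tested genes), with COL4A2 at 2.35, LAMB1 at 1.86, LAMA4 at 1.77 and COL4A1 at 1.76 (highest limma adjusted p = 0.0334), and LAMB2 at 1.61 and NID2 at 1.39 did not pass (limma adjusted p = 0.0530 and 0.123). In ECM-SIS muscle 5 rose (48% of tested genes), with LAMB1 at 2.30, LAMA4 and NID2 both at 1.79, COL4A2 at 1.63 and COL4A1 at 1.33 (highest limma adjusted p = 0.0320), and LAMB2 at 1.17 had an adjusted p of 0.0592. LAMC1 was at 0.81, 0.04 and 0.34 in the 3 comparisons and passed in none (lowest limma adjusted p = 0.297). When No repair and Sham libraries were fitted alone, 7 of 7 members passed, with LAMB2 and LAMC1 at an adjusted p of 0.00392 and 0.0249 in limma. The log2 differences of LAMB2 and LAMC1 were unchanged at 1.51 and 0.81. The share of all tested genes called in that fit is not given. In the fit of all libraries the LAMC1 difference between No repair and Sham was -0.18 after rescaling. After rescaling, LAMA4 and LAMB1 passed in all 3 comparisons, COL4A2 in HA and NID2 in ECM-SIS muscle, which makes 2, 3 and 3 of 7 members against 21.7, 23.1 and 29.3% of tested genes. Without Sham library 1 the counts were 2 in No repair, 0 in HA and 2 in ECM-SIS muscle. They were 3 and 2 in No repair muscle without its library 1 and 2 and 0 in HA muscle without HA library 1, where a lone library is assumed to vary like those of the other groups. COL4A1 in ECM-SIS muscle also lost its call without ECM-SIS library 4 or 5 (limma adjusted p = 0.0502 and 0.0544). For the fits with a library left out the share of all tested genes called is not given, so their counts cannot be read as particular to the members.

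The injured groups were then compared with one another, the comparison that asks whether a graft altered the response. No member was called in any of the 4 comparisons made, and neither was any other tested gene. The share called was 0% for ECM-SIS against No repair, 0% for HA against No repair, 0% for ECM-SIS against HA and 0% for ECM-SIS against the mean of the groups without ECM. At an unadjusted p under 0.05, 71, 196, 206 and 114 of the 8782 tested genes passed in these comparisons, none of them a member. Between ECM-SIS and injured muscle without ECM, COL4A1 differed by -0.43 (95% CI -1.26 to 0.40), COL4A2 by -0.56 (95% CI -1.43 to 0.30) and LAMB2 by -0.39 (95% CI -1.24 to 0.46) on the log2 scale. LAMA4 differed by -0.20 (95% CI -0.80 to 0.39), LAMB1 by 0.11 (95% CI -0.55 to 0.78), LAMC1 by -0.08 (95% CI -0.97 to 0.81) and NID2 by -0.05 (95% CI -1.01 to 0.91). The intervals of the collagen IV genes thus leave room for a level in ECM-SIS muscle that is lower by more than 1 on the log2 scale, and those of LAMA4 and LAMB1 do not.

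Relative to the fibrillar collagens the direction was the opposite. The summed TPM of the fibrillar collagen genes with a row, which are COL1A2, COL2A1, COL3A1, COL5A1, COL5A2, COL5A3 and COL11A1, was 872 and 1306 in the Sham libraries and 34540 to 90453 in the injured ones. COL1A1 was listed at 0 in all libraries, although COL1A2, the partner chain of type I collagen, reached 35728 TPM, so its share of the sum is missing. The 7 members together summed to 279 and 514 TPM in Sham and to 754 to 2043 TPM in injured muscle. They thus equaled 32.02 and 39.3% of the fibrillar collagen TPM in Sham libraries and 1.03 to 3.38% in injured libraries, even though their own share of all named TPM rose from 0.0375 and 0.0718% to between 0.0936 and 0.252%. A percent of this kind comes from 1 library and does not move with the scaling of that library.

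LAMC1 showed the largest fall in this measure. It was at 2.09 and 1.66% of fibrillar collagen TPM in Sham, 0.0433 and 0.0639% in No repair, and 0.0280 and 0.0475% in HA muscle. Its lowest, median and highest ECM-SIS values were 0.0203, 0.0344 and 0.116%. The injured libraries lay far below both Sham libraries, and the geometric mean was 46.2-fold lower, a log2 difference of -5.53. LAMB2 went from 4.14 and 5.59% to 0.0960 to 0.324% and was 23.9-fold lower. COL4A1 went from 5.59 and 9.80% to 0.170 to 0.616% and was 21.1-fold lower, and COL4A2 went from 4.18 and 7.64% to 0.179 to 0.613% and was 16.5-fold lower. The other laminin genes and the nidogen fell less. LAMA4 went from 15.3 and 13.3% to 0.478 to 1.71%, 16.4-fold lower, and NID2 from 0.151 and 0.191% to 0.00503 to 0.0312%, 14.3-fold lower. LAMB1 went from 0.585 and 1.19% to 0.0481 to 0.114% and was 11.96-fold lower. For each of the 7 genes the exact permutation test gave p = 0.0152 (2 against 10 libraries, two-sided, unadjusted), which is the smallest p that the 66 splits allow. In all 7 members every injured library was below both Sham libraries, and the same held for 97.5% of all tested genes when set against fibrillar collagen in this way.

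**Figure D3:**
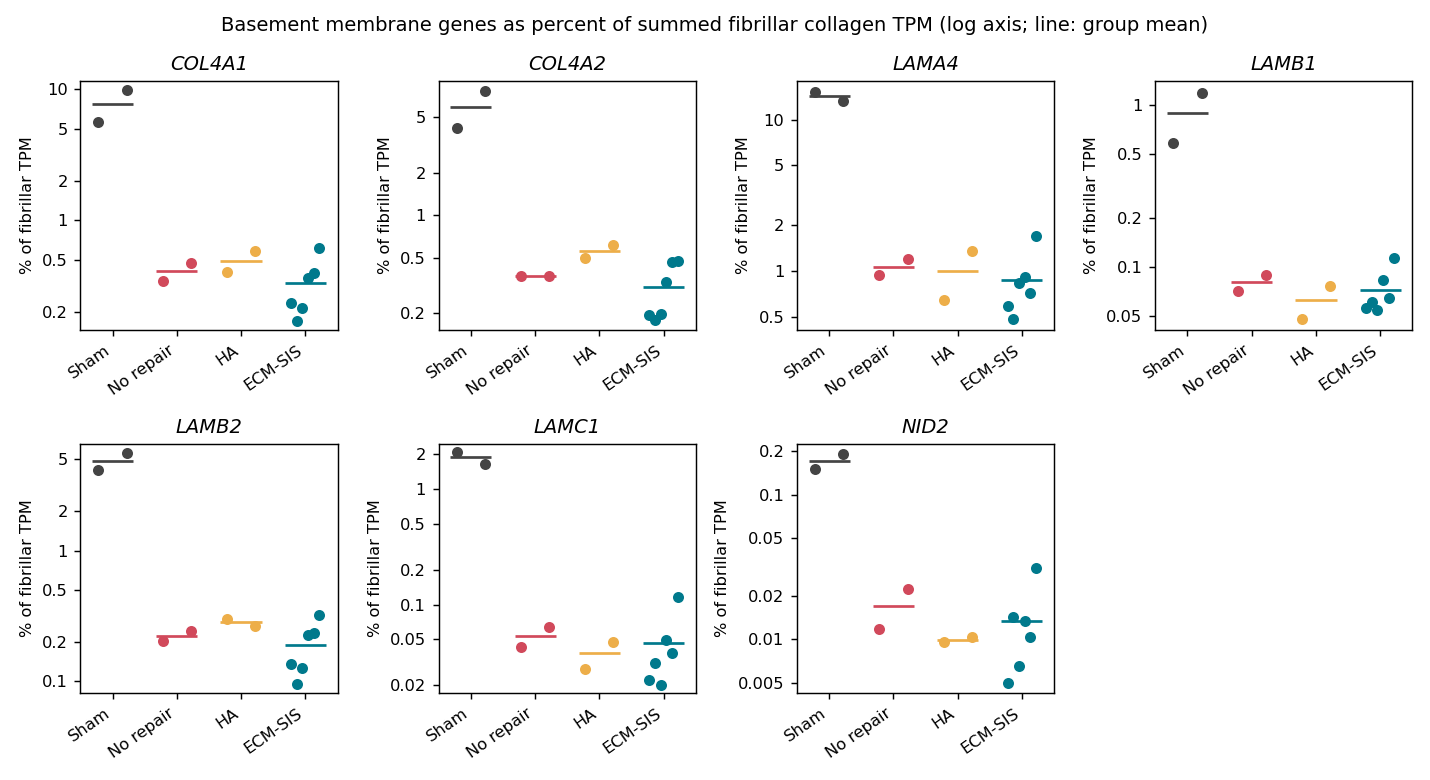
Each of the 7 genes as a percent of the summed fibrillar collagen TPM of the same library, on log axes that differ between panels, with a point per library and a line at the group mean. The Sham libraries lie above all injured libraries in each panel, and ECM-SIS library 6 is the highest injured library in every panel except that of COL4A2.

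The order of the levels was stable across libraries. LAMA4 ranked first in all 12, COL4A1 and COL4A2 shared ranks 2 and 3, LAMB2 was always rank 4, LAMB1 and LAMC1 shared ranks 5 and 6, and NID2 was always rank 7. COL4A1 was above COL4A2 in 7 of 12 libraries, so these neighbors in the order were not separated beyond their spread. LAMC1 was above LAMB1 in both Sham libraries and in ECM-SIS library 6, and below it in the other 9.

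The ratios between chains describe the makeup of the trimers that the transcripts could supply, and 3 of the 6 ratios listed for study had a row for both genes. They were computed from TPM + 0.5 within each library. LAMC1 over LAMB1, gamma over the less abundant beta chain, was 3.34 and 1.38 in Sham, 0.610 and 0.716 in No repair, and 0.586 and 0.625 in HA muscle. Its lowest, median and highest ECM-SIS values were 0.383, 0.550 and 1.01. All injured libraries were below both Sham libraries, by -1.88 on the log2 scale (exact permutation p = 0.0152, two-sided, unadjusted). The Sham libraries differed from each other in this ratio, and the difference was -1.24 without Sham library 1 and -2.52 without Sham library 2 (exact permutation p = 0.0909 in both, the smallest that 1 Sham library allows). The summed TPM of both beta chains over LAMC1, without the added 0.5, was 2.27 and 4.09 in Sham and 3.79 to 12.5 in injured muscle. In this measure 9 of 10 injured libraries were above both Sham libraries, and ECM-SIS library 6 at 3.79 was not. LAMB2 over LAMB1, the adult synaptic over the general beta chain, was 6.54 and 4.58 in Sham, 2.81 and 2.67 in No repair, and 6.20 and 3.39 in HA muscle, with ECM-SIS values from 1.56 through a median of 2.56 to 3.61. HA library 1 lay between the Sham libraries and the other 9 injured libraries below both, and the log2 difference was -0.93 (exact permutation p = 0.0303). The difference was -0.67 without Sham library 1 (exact permutation p = 0.273) and -1.19 without Sham library 2 (p = 0.0909). The p was 0.0545 when ECM-SIS library 1, 3, 4 or 6 or either No repair library was left out, and 0.0606 with a pseudocount of 1. LAMB1 accordingly made up 12.4 and 17.6% of the beta chain TPM in Sham and 13.8 to 38.9% in injured muscle. COL4A1 over COL4A2 was close to even throughout, at 1.33 and 1.28 in Sham and at 0.801 to 1.30 in injured muscle (log2 difference -0.35, exact permutation p = 0.0909), and without ECM-SIS library 6, the only injured library not below both Sham libraries, p was 0.0364.

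**Figure D4:**
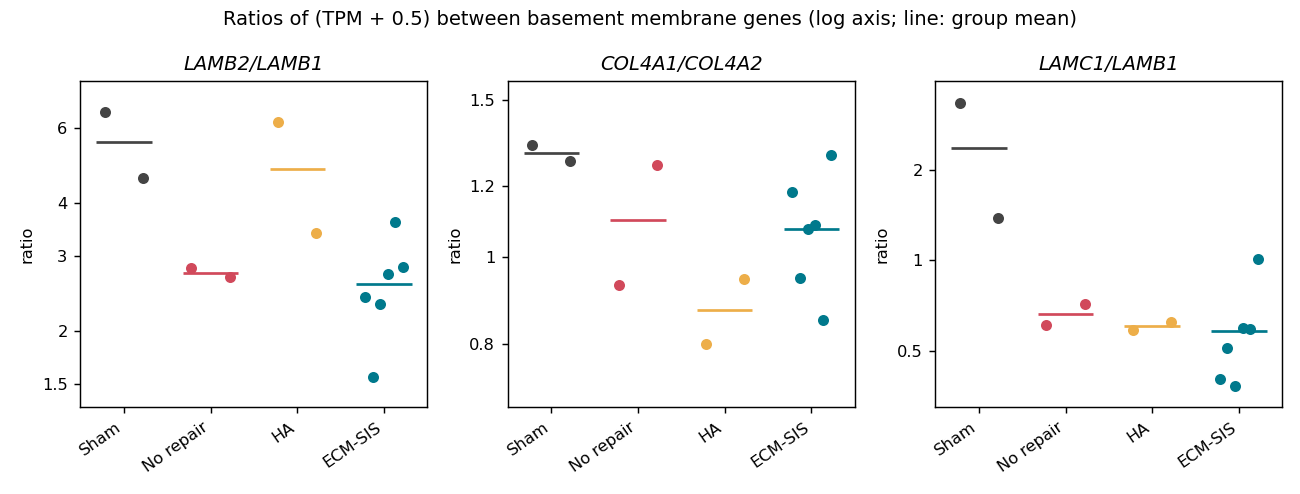
Ratios of (TPM + 0.5) of LAMB2 to LAMB1, COL4A1 to COL4A2 and LAMC1 to LAMB1 in each library, on log axes that differ between panels, with a point per library and a line at the group mean. LAMC1 to LAMB1 separates Sham from all injured libraries, whereas in each of the other panels 1 injured library reaches the Sham range.

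Among the injured limbs, 2 of the 3 pairs of members compared varied together. Over the 9 injured pigs, with the limbs of pig 017 averaged, log2(TPM + 0.5) of COL4A1 and COL4A2 had a Pearson's r of 0.937 (exact permutation p = 0.000364, adjusted over 3 pairs 0.000546) and a Spearman's rho of 0.883 (p = 0.00308, adjusted 0.00461). LAMC1 and LAMB1 had an r of 0.958 (exact permutation p = 0.000179, adjusted 0.000537) and a rho of 0.967 (p = 0.000165, adjusted 0.000496). LAMB2 and LAMB1 had an r of 0.619 (exact permutation p = 0.0736, adjusted 0.0736) and a rho of 0.600 (p = 0.0968, adjusted 0.0968). Without the 2 pigs farthest from the median of the first-named gene, r was 0.880, 0.851 and 0.454 in this order of pairs. The values of a pair share a library and its scaling, and the part that this plays was not tested. As ratios to fibrillar collagen the pairs had an r of 0.918, 0.951 and 0.479. Both genes of a pair are then divided by the same sum, which can itself make them vary together, so these values cannot decide it.

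The genes whose levels followed a member most closely over the 10 injured libraries, by Pearson's r of log2(TPM + 0.5) and as a description only, were not other members. For COL4A1 they were HECTD3 (r = 0.993), ZNF672 (0.990), PITPNM2 (0.988), TBC1D17 (0.985) and PPP6R1 (0.984), while LAMB2 reached 0.959 and COL4A2 0.936. For LAMB2 they were PPFIA3 (0.987), LOC102159087 (0.984), TSC2 (0.983), EXOC2 (0.983) and PLA2G6 (0.982). For LAMB1 they were DENND4C (0.978), SORT1 (0.974), LOC102160639 (0.969), ITGA11 (0.964), a collagen-binding integrin subunit, and SIGLEC11 (0.963), while LAMC1 reached 0.919 and NID2 0.900 and COL4A2 only 0.497. These libraries all share the injury, and 2 of them share a pig.

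Most of the other matrix genes listed and tested were higher after VML. The list also holds genes of the matrix around the basement membrane, so its count and median are not those of the basement membrane alone. Of 17 tested, 12 rose, none fell and 5 did not pass in VML-injured against Sham muscle (49.4 and 7.66% of tested genes), with a median of 2.41 on the log2 scale. COL6A1 and COL6A3, chains of the beaded collagen VI filaments that tie the basement membrane to its surroundings, rose by 4.91 and 4.32 (limma adjusted p = 2.8e-05 and 5.5e-06). TGFBI, a matrix protein that binds collagens and integrins, rose by 4.55, EFEMP2, an elastic fiber assembly protein, by 3.22, and COL7A1, the anchoring fibril collagen, by 1.48 (limma adjusted p = 2.2e-06, 6.9e-06 and 0.00347). COL15A1, which lies on the outer face of vessel and muscle basement membranes, was at 0.32 (limma adjusted p = 0.405) and at -0.49 after rescaling (limma adjusted p = 0.119). As deposited, SPARCL1 at 0.89, VWA1 at 0.90, TINAGL1 at 0.74 and CRIM1 did not pass either (lowest limma adjusted p = 0.0572). These were named after their values were seen. After rescaling 11 rose and 1 fell (28.7 and 28.7% of tested genes). The latter, named after its value was seen, was CRIM1, at -0.39 as deposited and -1.18 after rescaling (limma adjusted p = 0.486 and 0.0144). Of the other collagen IV and laminin chains only COL4A6 had a row, and it stayed below the filter at 0.203 to 1.62 TPM.

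Genes listed for the folding, secretion and crosslinking of collagen IV mostly rose. Of 14 tested, 11 rose and none fell, on either scale, with a median of 2.98 (2.18 after rescaling), where 49.4% of all tested genes rose as deposited and 28.7% after rescaling. The collagen chaperone SERPINH1 rose by 4.30, the prolyl 4-hydroxylase subunits P4HA1 and P4HA2 by 1.77 and 3.26, CRTAP of the prolyl 3-hydroxylation complex by 3.70 and the chaperone FKBP10 by 5.25 (highest limma adjusted p = 0.000548). These proteins also serve fibrillar collagens. The 3 that did not pass, named after their values were seen, were P3H2 at 0.10, KLHL12 at 0.49 and PPIB at 2.59 (limma adjusted p = 0.865, 0.153 and 0.112). No lysyl oxidase was among the tested genes, and LOXL4 stayed below the filter. Of 14 tested genes of basement membrane proteolysis 12 rose and none fell, on either scale and beside the same shares of all genes, with a median of 3.17 (2.48 after rescaling). MMP2, a gelatinase that cleaves collagen IV, rose by 5.48, its activator MMP14 by 4.99, MMP3 by 3.14 and the cathepsin CTSB by 3.08 (highest limma adjusted p = 0.000418).

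Receptors were mixed. Of 21 tested, 9 rose and 4 fell as deposited (49.4 and 7.66% of all tested genes), and 6 rose and 8 fell after rescaling (28.7 and 28.7%). The share that rose was thus no higher than among all genes on the deposited scale and close to it after rescaling. ITGB1, the beta subunit common to the laminin-binding and collagen-binding integrins, rose by 2.14, ITGB5 by 3.36 and the heparan sulfate proteoglycan SDC1 by 3.76 (highest limma adjusted p = 0.000169). The collagen-binding subunits ITGA1 and ITGA2 were at -1.23 and 1.86 (limma adjusted p = 0.127 and 0.0823). The 4 that fell, named after their values were seen, were DMD by 2.43, SGCB by 1.80, SGCA by 1.71 and SGCD by 1.23, all of the dystrophin complex that ties the fiber to laminin. Of 12 tested genes of dystroglycan glycosylation, through which dystroglycan binds laminin, 6 rose and none fell with a median of 0.71, and after rescaling 2 rose and 3 fell. The count that rose and the median were close to the 49.4% and 0.73 of all tested genes. DPM2 and GMPPB, which supply mannose donors, rose by 2.52 and 2.23 (highest limma adjusted p = 0.000283).

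Markers of the cell types that a muscle sample holds were measured beside the members. The summed TPM of 13 endothelial markers was 294 and 502 in Sham and 248 to 885 in injured muscle, with SOX18 at 0 in all libraries, and of the 12 tested only EGFL7 and ENG rose (1.14 and 1.29) and none fell. PECAM1, CDH5 and KDR, which define endothelium, were detected in both groups and differed by 0.63, -0.17 and -0.07 (lowest limma adjusted p = 0.294). After rescaling no endothelial marker was higher and 2, KDR and FLT1, were lower. COL4A1 and COL4A2 together equaled 28.9 and 45.3% of the endothelial marker TPM in Sham and 58.5 to 147% in injured muscle. In 6 of 7 members all injured libraries lay above both Sham libraries in this measure, as for 32.9% of tested genes, and the exception was LAMC1 at 6.18 and 4.31% against 3.35 to 9.43%.

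Pericyte and smooth muscle markers summed to 589 and 832 TPM in Sham and 1019 to 1599 in injured muscle, with PDGFRB, CSPG4, ACTA2, TAGLN and SMTN of 11 higher and SYNPO2 lower, the last 2 named after their values were seen. The pair of collagen IV genes equaled 14.5 and 27.4% of them in Sham and 14.5 to 51.4% in injured muscle. SYNPO2 alone averaged 286 TPM beside a mean sum of 710 TPM in Sham, and 76.3 beside 1300 TPM in injured muscle. These percents therefore lean on SYNPO2, and they were not computed without it. Schwann cell and nerve markers summed to 24.7 and 29.2 TPM in Sham and 41.7 to 172 in injured muscle, with 2 of 6 higher, S100B by 1.81 and NCAM1 by 1.58. MBP at -0.62, SOX10 at 1.14, EGR2 at 0.10 and MAL at 0.69 did not pass (lowest limma adjusted p = 0.250), the last 2 named after their values were seen. S100B alone averaged 15.7 TPM beside a mean sum of 27.0 TPM in Sham, and 61.9 beside 86.5 TPM in injured muscle. Fibroblast and progenitor markers had 9 of 12 higher and a summed level of 331 and 424 TPM in Sham and 4261 to 11390 in injured muscle. The pair of collagen IV genes fell from 25.7 and 53.7% of them to 2.53 to 9.67%. Macrophage markers had 13 of 13 higher, with a summed level of 40.4 and 76.4 TPM in Sham and 851 to 2010.3 in injured muscle. Of 10 adipocyte markers CFD rose and PNPLA2 and GPD1 fell. ADIPOQ, PLIN1 and FABP4 were at -0.21, -0.14 and 0.67 and did not pass (lowest limma adjusted p = 0.157). The sum of the adipocyte markers was at 800.4 and 912 TPM in Sham and 246 to 761 in injured muscle, with means of 856 and 482 TPM. GPD1 alone averaged 449 TPM in Sham and 110 TPM in injured muscle. LPL, named after its value was seen, averaged 170 and 56.5 TPM. Of the 20 muscle fiber markers 15 fell and none rose. The part that these shifts in cell type play in the levels of the basement membrane genes was not tested.

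**Figure D5:**
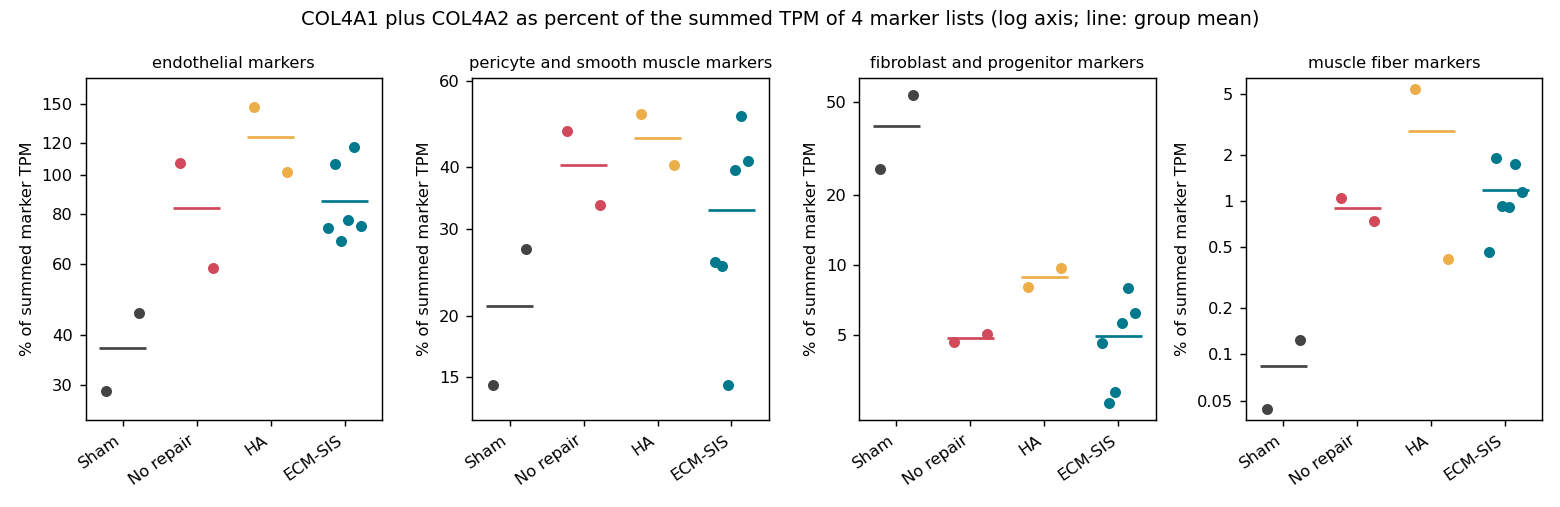
COL4A1 plus COL4A2 TPM as a percent of the summed TPM of endothelial, pericyte and smooth muscle, fibroblast and progenitor, and muscle fiber markers in each library, on log axes that differ between panels, with a point per library and a line at the group mean. The pair is above both Sham libraries in all injured libraries when set against endothelial or muscle fiber markers, and below both in all of them when set against fibroblast markers.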

How the data were processed

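RNA-seq libraries were made by the authors with the TruSeq protocol from total RNA of the muscle and sequenced as paired ends. The authors quantified transcripts with kallisto (default settings, pig genome), deposited the values as TPM and used DESeq2 for their own tests. Only the deposited TPM were used here. TPM keep no read counts, so neither the depth per library nor its precision is known, and no count model was run. No value column lacked a sample.

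A gene was tested if it reached 1 TPM in every library of some condition, as 8782 genes did. All 12 libraries were fitted together as log2(TPM + 0.5), with a coefficient per condition, in limma 3.58.1 (lmFit, eBayes with trend and robust estimation) in R 4.3.3, and p was adjusted over all tested genes by Benjamini and Hochberg's method with a threshold of 0.05. A fold change on this scale understates the change of genes with low values. Percents of fibrillar collagen and ratios of genes were compared by exact permutation of the libraries (Python 3.11.15, pandas 2.3.3, scipy 1.17.1). Rescaled values are TPM divided by a factor per library from log ratios trimmed by 30% and abundances trimmed by 5%. The alternatives tried were this and median-of-ratios rescaling, other pseudocounts, filters, variance models and denominators, a 2-fold threshold, only the compared conditions, each library left out in turn and pig 017 left out. The fit was tested on simulated data.

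Names that had been turned into dates (21) stayed in the fit unnamed, and gene numbers in the RefSeq table of Sscrofa11.1 gave a symbol to 618 of the 1833 LOC names. The build of the reads differs, so no coordinates are given. The genes named are all members, the fibrillar collagens, the first 3 tested genes of every other list and the 3 with the smallest p in VML-injured against Sham, and the 5 genes nearest to COL4A1, LAMB1 and LAMB2 by correlation. Some genes that this rule names are not reported here. Others are said to have been named after their values were seen. The members and lists were chosen with earlier results of these data known, so no list was tested and no p was adjusted over a list.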

Additional observations from a re-analysis of the deposited data

Results flagged for a closer look

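In ECM-SIS library 6, 6 of the 17 values examined in that group of 6 libraries were set apart from the other libraries by more than Dixon's 95% critical value of 0.625 (gap over range), which chance exceeds in about 1 of 20 groups. LAMA4 was at 1032 TPM in it and at 362 to 576 TPM in the other ECM-SIS libraries. LAMC1 was at 69.8 TPM against 10.6 to 31.2 TPM in the others. As a percent of fibrillar collagen TPM, LAMA4 was at 1.71 against 0.478 to 0.907, LAMC1 at 0.116 against 0.0203 to 0.0492 and NID2 at 0.0312 against 0.00503 to 0.0143. The ratio of LAMC1 to LAMB1 was 1.01 against 0.383 to 0.597. The values share a library and are not independent of one another, and this library also had the highest scaling factor of the 12 (1.55) and the most genes at 1 TPM or more (9250). The part that these play was not tested.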

How the results depend on the processing

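Depth is unknown and 2 Sham libraries set every difference from Sham. Of the counts of members called, 163 stayed within 1.5 times the reported count and 13 did not. The 163 include every count between injured groups, where no member was called under any setting, so the tally overstates how stable the counts against Sham were. They also include the change of VML-injured from 6 to 4 members on rescaling by trimmed means. VML-injured ranged from 2 to 6 members over libraries left out in turn. No repair gave 7 when fitted with Sham alone, 2 with trimmed means, 3 with median of ratios, 3 without pig 017 and 2 to 6 with a library left out. HA gave 2 when fitted with Sham alone and 0 to 5 with a library left out, and the 0 came without HA replicate 1 and without Sham replicate 1. ECM-SIS gave 6 when fitted with Sham alone, 3 under either rescaling and 2 to 6 with a library left out. No member was called between injured groups under any alternative. For fits with Sham alone or with a library left out, the share of all tested genes called is not given beside the count of members. Of the members' log2 differences, 689 kept direction and call, 44 lost the call, 17 gained it and 20 turned direction. LAMC1 turned to -0.41 and -0.41 (VML-injured), -0.18 and -0.17 (No repair), -0.60 and -0.62 (HA) and -0.45 and -0.44 (ECM-SIS) with trimmed means and median of ratios, and in HA it ran from -0.27 to 0.34 with a library left out. Between ECM-SIS and injured muscle without ECM, LAMB1 was at -0.071 without pig 017 and, with a library left out, LAMB1 ran from -0.061 to 0.29, LAMC1 from -0.37 to 0.16 and NID2 from -0.34 to 0.24. For the percents of fibrillar collagen 106 values kept direction and call, and the 14 that lost the call lacked a Sham library, when no p under 0.0909 is possible. The number of ratios without overlap of the groups, 1 as reported, ran from 1 to 3, with 2 without HA replicate 1 or ECM-SIS replicate 6 and 3 without Sham replicate 2. The causes were not tested.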
